A study of Mus musculus with 50 samples.

Results

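Genes that the STING agonist DMXAA still changed when SGK kinases were inhibited were read from 8 of the 50 libraries of the series. These were the 5 libraries of wild-type RAW264.7 cells given Sanofi-14h and then DMXAA, and the 3 libraries of the same cells left without treatment, called rest here. RAW264.7 is a mouse macrophage line. The cells of the groups compared here carried an empty vector with its sgRNA, the control for the SGK knockout lines of the series. Sanofi-14h, an SGK inhibitor, was given at 500 nM for 2 h before 10 µg/mL DMXAA, which was given for 2 h. The 5 libraries of these cells given DMXAA with no inhibitor named in their labels served as the second reference. All 13 libraries belong to the batch called b1 here, which was read from the numbers that end their names. Libraries whose names end in letters were taken as another batch. The 13 libraries were made from poly-A RNA, and were chosen by their labels alone. The fit used all 26 libraries of that batch in 6 groups, so that every group added to the estimate of spread. The groups that were fitted but not compared were knockout lines. They were SGK3 knockout cells at rest and with DMXAA, and SGK1/3 double knockout cells with DMXAA.

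STING is a membrane receptor of the endoplasmic reticulum that binds cyclic dinucleotides made by cGAS on cytosolic DNA, and DMXAA binds mouse STING directly. Active STING recruits the kinase TBK1, which phosphorylates the transcription factor IRF3. IRF3 and NF-kB together switch on Ifnb1, and secreted interferon beta then acts through its receptor on a second wave of antiviral genes. SGK kinases are relatives of AKT that are activated through PI3K, PDPK1 and mTORC2, and they phosphorylate FOXO factors and NDRG1.

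None of the 6 groups in the fit received the inhibitor without DMXAA, so an effect of the inhibitor on a gene at rest and an effect on its response to DMXAA cannot be told apart. The labels mention a DMSO vehicle without saying which libraries received it. They name 1 line for each genotype and do not say whether it was a clone or whether the libraries of a group came from separate cultures. The p-values therefore rest on the spread between libraries within the 6 groups of the fit, knockout lines among them, and that spread may be technical. In bulk RNA, fewer cells expressing a gene and less of its RNA per cell cannot be told apart.

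Total deposited counts were 63679756 to 67696188 at rest, 65918300 to 86608986 with DMXAA and 57859509 to 94616453 with inhibitor and DMXAA. On the first principal component, which held 60.7% of the variance, rest lay from -0.50 to -0.43, DMXAA from 0.22 to 0.27 and inhibitor plus DMXAA between them, from -0.02 to 0.06. On the second, with 14.8%, the inhibitor libraries lay from 0.25 to 0.49 and the other groups were below 0. Inhibitor library 1 stood apart from its group, with the smallest total, the highest shares of ribosomal protein and mitochondrial counts (8.12% and 4.96%) and the highest value on the second component. It was the lowest of the 5 libraries for 28 of 33 antiviral genes, against 31.7% of all genes tested. Rest library 1 was the highest of the 3 for 32 of 33 antiviral genes, against 38.5% of all genes.

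With inhibitor and DMXAA, 2955 genes were higher than at rest (17.4% of the 16947 tested) and 2548 were lower (15.0%), at an adjusted p under 0.05 in edgeR's quasi-likelihood test. The change was at least 2-fold for 738 of the higher genes (4.35% of those tested) and 288 of the lower ones (1.7%). With DMXAA alone, 3032 genes were higher than at rest (17.9%) and 2957 were lower (17.4%), among them 967 and 506 with at least a 2-fold change. Both sets of counts rest on the same 3 rest libraries. The direct test of inhibitor plus DMXAA against DMXAA called 1802 genes higher (10.6%) and 1718 lower (10.1%), with 66 and 214 changed at least 2-fold. The median absolute log2 change of the called genes was 0.38, 0.46 and 0.29 in these 3 comparisons. The counts of list members below stand beside these shares over all genes tested.

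The balance of directions depended on the scaling. Upper-quartile scaling gave 2411 genes higher and 3369 lower than at rest with inhibitor and DMXAA. Limma on log2(TPM + 1) gave 1824 and 3699, and for DMXAA alone 2268 and 3722, and for the direct test 1174 and 1748. The median of all genes moved by no more than 0.06 on the log2 scale under these scalings. Fitting 46 libraries of both batches lowered the count against rest to 3231 and that of the direct test to 1558.

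**Figure D1:**
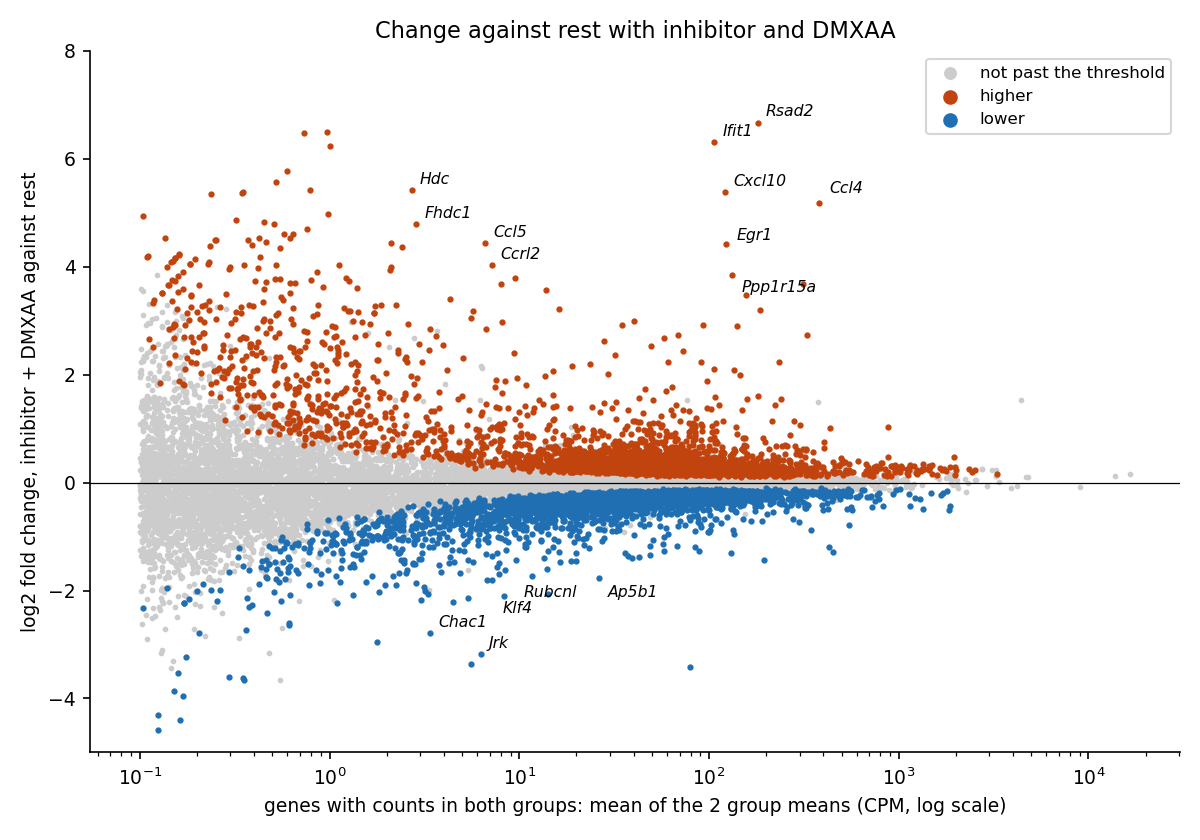
Log2 fold change with inhibitor and DMXAA against rest (vertical axis) for tested genes with counts in both groups, against the mean of both group means in CPM (horizontal log axis). Genes of the lowest mean level or the most extreme change are not drawn. Orange and blue points passed an adjusted p under 0.05; the largest rises at high level were Rsad2 at 6.67 and Ifit1 at 6.31, while Jrk fell by 3.17.

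The promoters of 8 genes that the results turn on are shown because these genes differed in how their level with inhibitor and DMXAA stood to rest and to DMXAA. Each run covers the 250 bases before the annotated start, taken from RefSeq on GRCm38.p6 and written 5′ to 3′ on the gene's strand. Capitals mark 3 cores searched on both strands. The interferon-stimulated response element core was GAAA, any 2 bases, then GAAA. The NF-kB (kB) core was GGG, any 3 bases, then TTCC. The STAT (GAS) core was TTC, any 3 bases, then GAA. The 3 cores differ in letters, and a match of 1 can overlap a match of another. A match is a description of the letters, not a site shown to be bound.
Ifnb1, chr4:88522795-88523044, minus strand: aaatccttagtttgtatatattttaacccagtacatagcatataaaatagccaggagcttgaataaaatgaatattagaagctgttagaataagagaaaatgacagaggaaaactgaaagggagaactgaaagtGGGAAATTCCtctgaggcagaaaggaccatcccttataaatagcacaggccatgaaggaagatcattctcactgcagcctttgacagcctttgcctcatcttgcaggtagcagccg
Cxcl10, chr5:92348890-92349139, minus strand: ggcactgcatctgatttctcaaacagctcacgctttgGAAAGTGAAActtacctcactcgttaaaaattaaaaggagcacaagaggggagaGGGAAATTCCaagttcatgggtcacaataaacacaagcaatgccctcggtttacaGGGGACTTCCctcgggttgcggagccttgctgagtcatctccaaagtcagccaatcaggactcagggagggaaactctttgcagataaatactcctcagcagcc
Rsad2, chr12:26456453-26456702, minus strand: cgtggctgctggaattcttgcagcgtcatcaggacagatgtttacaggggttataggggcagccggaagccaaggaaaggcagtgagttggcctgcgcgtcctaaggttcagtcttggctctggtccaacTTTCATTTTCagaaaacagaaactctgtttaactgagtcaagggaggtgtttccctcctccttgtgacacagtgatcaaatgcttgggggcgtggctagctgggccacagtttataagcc
Igtp, chr11:58199306-58199555, plus strand: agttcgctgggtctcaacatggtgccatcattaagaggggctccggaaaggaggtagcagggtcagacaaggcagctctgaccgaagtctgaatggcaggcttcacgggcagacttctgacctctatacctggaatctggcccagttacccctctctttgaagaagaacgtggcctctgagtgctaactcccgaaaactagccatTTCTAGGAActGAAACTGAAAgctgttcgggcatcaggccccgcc
Irgm2, chr11:58214727-58214976, plus strand: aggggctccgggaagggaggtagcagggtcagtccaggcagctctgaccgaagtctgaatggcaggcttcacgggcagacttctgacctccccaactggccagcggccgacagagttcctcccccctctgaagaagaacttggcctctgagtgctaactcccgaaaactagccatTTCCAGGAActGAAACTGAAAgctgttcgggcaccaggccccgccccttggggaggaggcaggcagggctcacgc
Nfkbia, chr12:55492648-55492897, minus strand: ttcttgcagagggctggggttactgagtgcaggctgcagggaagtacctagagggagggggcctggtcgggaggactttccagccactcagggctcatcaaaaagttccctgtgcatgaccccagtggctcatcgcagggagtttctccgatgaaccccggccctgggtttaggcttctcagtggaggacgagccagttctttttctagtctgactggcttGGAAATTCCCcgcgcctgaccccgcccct
Tnf, chr17:35202008-35202257, minus strand: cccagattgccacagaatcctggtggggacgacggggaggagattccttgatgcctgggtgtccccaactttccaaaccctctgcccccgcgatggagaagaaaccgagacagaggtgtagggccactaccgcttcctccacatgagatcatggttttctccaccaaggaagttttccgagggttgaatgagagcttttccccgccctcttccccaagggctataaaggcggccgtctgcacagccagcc
Tifab, chr13:56178886-56179135, minus strand: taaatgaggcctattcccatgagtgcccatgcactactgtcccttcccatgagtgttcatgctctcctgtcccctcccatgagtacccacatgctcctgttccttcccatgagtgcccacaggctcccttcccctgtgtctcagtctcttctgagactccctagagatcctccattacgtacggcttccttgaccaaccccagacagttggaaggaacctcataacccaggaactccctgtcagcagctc
Ifnb1 and Nfkbia hold a kB core and no full response element core, Cxcl10 holds both kinds, and Rsad2 holds the response element. Igtp and Irgm2 hold a GAS core directly before a response element core. Tnf and Tifab hold none of the 3 cores in these letters. In the window from 250 bases before to 50 after the start, the response element core was found in 9 of 10 interferon-inducible GTPases and 16 of 26 antiviral genes with a promoter entry, against 3.94% of 10547 tested genes and 3.44% of 32851 promoters. The GAS core was found in 6 of 10 GTPases, against 8.36% of tested genes and 8.3% of all promoters. The kB core was found in 8 of 15 NF-kB subunits and inhibitors and 5 of 11 inflammatory genes, against 7.59% of tested genes and 5.56% of all promoters. These lists were drawn up with results of these data known, so the shares describe them only.

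Interferon beta itself was induced in the presence of the inhibitor, at a lower level than with DMXAA alone. Ifnb1 (chr4:88440262-88441011 on GRCm39, as are all gene positions here) had no count in any rest library. Its levels, in counts scaled to a common library total (CPM), were 7.40, 7.11, 6.63, 7.67 and 7.03 CPM with inhibitor and DMXAA, and 28.4, 30.3, 37.9, 42.6 and 52.0 CPM with DMXAA. No library of one group overlapped with another, and the inhibitor libraries lay close together. The rise was at least 40.7-fold with inhibitor and at least 217-fold with DMXAA, taking rest at a floor of 3 read pairs in a library. The level with inhibitor was 5.33-fold lower than without (log2 -2.42 ± 0.19 SE, adjusted p = 1.3e-08). The floor assumes 4 deposited counts for each read pair, a unit the labels do not state, so these bounds share that doubt.

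The chemokines that IRF3 and NF-kB share rose as well. Cxcl10, which recruits T cells through CXCR3, was at 7.71, 4.29 and 4.95 CPM at rest. It reached 242, 263, 249, 208 and 223 CPM with inhibitor and DMXAA, and 699, 670.3, 671, 641 and 618 CPM with DMXAA. The 3 groups did not overlap. The rise with inhibitor was 5.39 ± 0.23 on the log2 scale (41.9-fold, adjusted p = 7.7e-14), and the level was 2.78-fold lower than with DMXAA. Ccl5, a chemokine for T cells and monocytes, rose 21.6-fold, from 0.584 ± 0.145 (SD, n = 3) to 12.6 ± 1.48 CPM (n = 5), against 47.1 ± 4.63 CPM with DMXAA (n = 5).

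Of the 11 interferon and chemokine genes tested out of 13 listed, 7 rose with inhibitor and DMXAA, and 6 were lower than with DMXAA alone. The monocyte chemokine Ccl2 rose by 1.97 ± 0.29 on the log2 scale and was 0.93 ± 0.22 lower than with DMXAA; both calls were lost in the fit of 46 libraries (adjusted p = 0.068 and 0.46). Ccl7 was called at a level under the floor in every group, so no fold is given for it. Cxcl11 rose by 1.02 ± 0.31, with groups that overlapped, and its call was lost without rest library 2 or 3. The median log2 change of the tested members, with genes at their bound where rest had no count, was 1.02 with inhibitor and 1.89 with DMXAA, beside a median of 0.00 over all genes. With 46 libraries in the fit 4 of them rose.

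**Figure D2:**
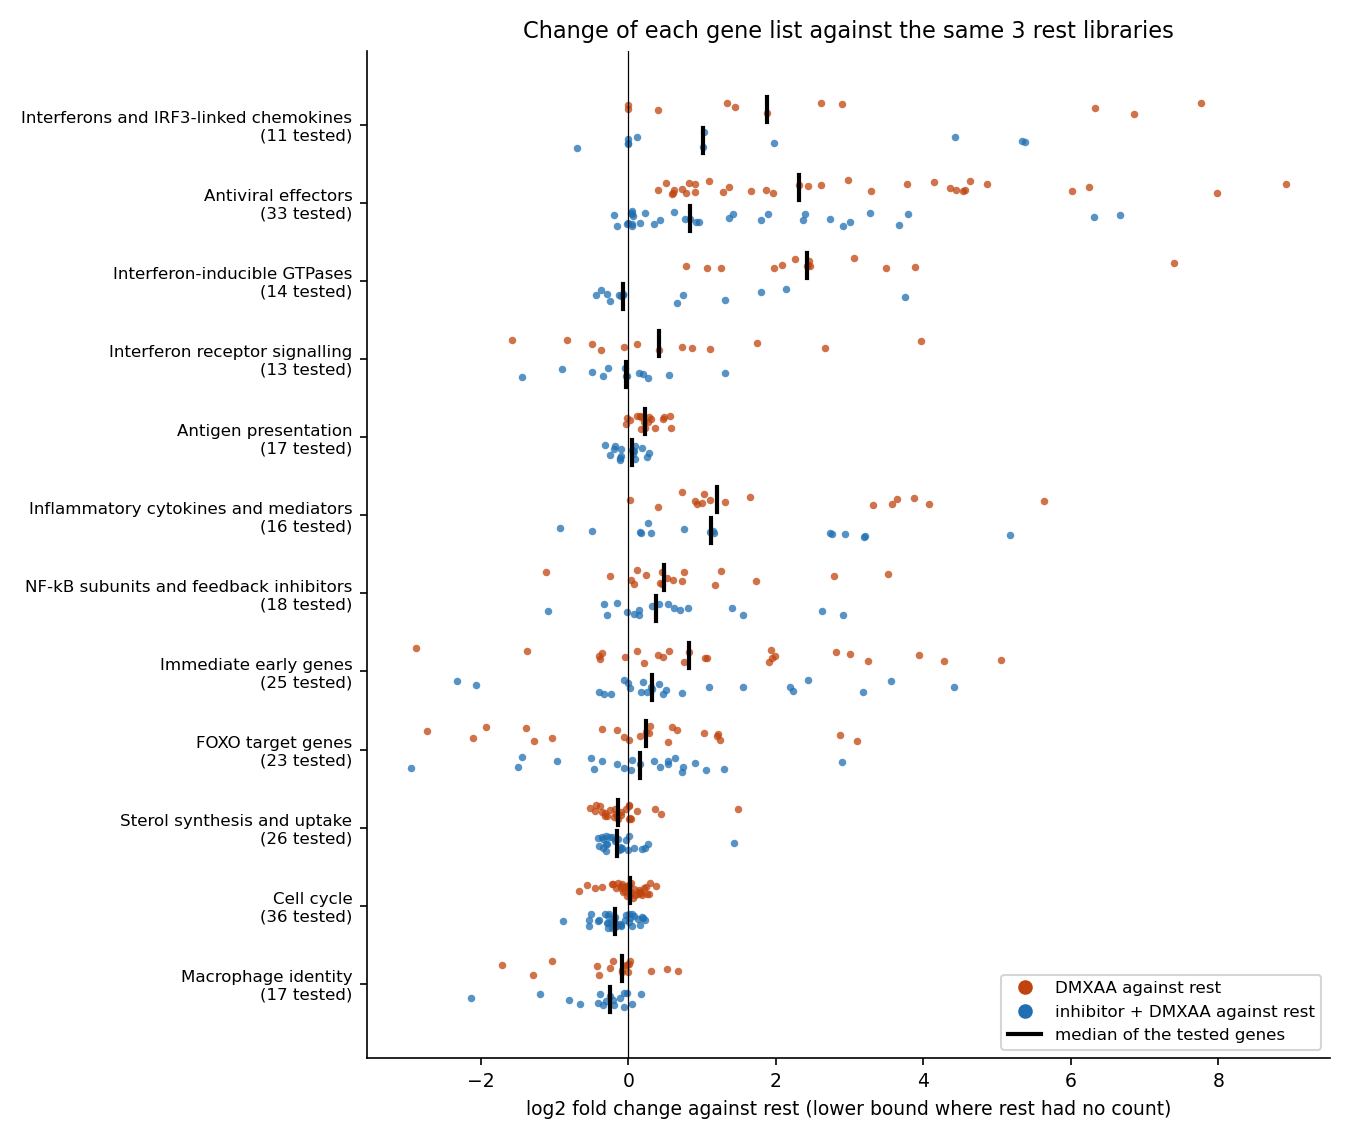
Log2 fold change against rest of every tested gene in 12 lists (points), with DMXAA (orange) and with inhibitor and DMXAA (blue), and the median of each list (black bars). Antiviral effectors had medians of 2.32 and 0.84, and interferon-inducible GTPases 2.43 and -0.07; both comparisons use the same 3 rest libraries.

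Some of the antiviral effectors were called higher than at rest and the others did not pass. Not passing does not show that a gene stayed at its rest level. Of 33 tested out of 34 listed, 17 rose with inhibitor and DMXAA, 33 rose with DMXAA alone, and all 33 were lower with inhibitor than without. Rsad2 (chr12:26492745-26506451), which encodes viperin, was at 5.47, 2.42 and 2.59 CPM at rest. It was at 256, 378, 421, 379 and 353 CPM with inhibitor and DMXAA, and at 1508, 1678, 1811, 1825 and 1675 CPM with DMXAA. The groups stood far apart, with inhibitor library 1 lowest in its group. The rise was 102-fold (6.67 ± 0.30 on the log2 scale, adjusted p = 2.6e-13), and the level was 4.76-fold lower than with DMXAA (adjusted p = 1.3e-08).

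Ifit1, which binds viral RNA with unusual caps, was at 4.37, 1.41 and 2.10 CPM at rest, and at 204, 239.8, 206, 201 and 197 CPM with inhibitor and DMXAA. That was a 79.9-fold rise, to a level 3.18-fold lower than the 667 ± 54.1 CPM of DMXAA. Oasl1, a regulator of Irf7 translation, rose from 45.4 ± 9.04 to 581 ± 60.5 CPM and stood 0.95 ± 0.08 log2 below DMXAA. Rises of 3.00 ± 0.24 for the ubiquitin-like modifier Isg15, 2.91 ± 0.16 for the RNA sensor Ifih1 and 2.73 ± 0.18 for the nucleotide kinase Cmpk2 were also called. Counts of Ifit and Oas paralogs may share reads, so single members of these families are uncertain.

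Several antiviral genes that DMXAA raised did not pass the test against rest once the inhibitor was present. Mx1, a dynamin-like restriction factor, was at 1.01, 0.287 and 0.547 CPM at rest and 0.558, 0.652, 0.976, 0.767 and 1.16 CPM with inhibitor and DMXAA. With DMXAA it was at 5.32, 9.06, 8.36, 10.5 and 9.04 CPM. The first 2 groups overlapped (log2 0.42 ± 0.43, adjusted p = 0.51), and the level with inhibitor was 10.3-fold lower than with DMXAA. Mx2 did rise, by 1.80 ± 0.25, and was 2.73 ± 0.20 below DMXAA on the same log2 scale. The protein kinase Eif2ak2 (-0.01, adjusted p = 0.98) and Oas3 (-0.15, adjusted p = 0.61) also did not pass.

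The libraries that stood apart moved these counts. Without rest library 1, 22 antiviral genes rose, and without inhibitor library 1, 19 rose. Across the alternative settings 16 to 22 rose and 28 to 33 were lower than with DMXAA. Why these 2 libraries differed from their groups was not tested.

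The interferon-inducible GTPases, which attack vacuoles that hold pathogens, had a median log2 change of -0.07 against rest with inhibitor and DMXAA, and 2.43 with DMXAA. Of 14 tested, 4 rose and 1 fell against rest, while 10 rose with DMXAA, and 11 were lower with inhibitor than without. The rises numbered 2 in the fit of 46 libraries and under limma on log2(TPM + 1). Rest library 1 was the highest at rest for 13 of the 14 genes, against 38.5% of all genes tested, so it raised the reference. Irgm2 was at 15.7, 8.40 and 7.58 CPM at rest and at 7.48, 8.85, 10.1, 13 and 9.15 CPM with inhibitor and DMXAA. With DMXAA it was at 55.4, 56.5, 59.5, 60.8 and 55.5 CPM. The rest and inhibitor groups overlapped (log2 -0.12 ± 0.19, adjusted p = 0.69), and the difference from DMXAA was 5.92-fold (adjusted p = 1.6e-10).

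Igtp followed the same order, at 12.1 ± 2.2 CPM at rest, 11.5 ± 2.65 with inhibitor and DMXAA and 51.0 ± 3.33 with DMXAA. Igtp (chr11:58090382-58098417) lies almost wholly within the span of Irgm2 (chr11:58090444-58113608) on the same strand, so the reads of this pair cannot be told apart with certainty. Irgm1 did rise, by 0.66 ± 0.11, and stood 1.76 ± 0.10 log2 below DMXAA. Gbp5 rose from 0.0189 ± 0.0328 to 0.278 ± 0.164 CPM, at least 1.58-fold over the floor (a call lost in the fit of 46 libraries and under limma on log2(TPM + 1)), and was 12.9-fold lower than the 3.59 ± 0.793 CPM of DMXAA. The rise of Gbp3 (0.74 ± 0.29, adjusted p = 0.046) was lost in 11 of the settings tried, with 0.56 without rest library 2. The fall of Ifi47 (-0.37 ± 0.14, adjusted p = 0.040) was lost without inhibitor library 1 or 2 and without rest library 1, where it was -0.16. That call was also lost in the 3 groups alone, with no filter, and in the fit of 46 libraries (adjusted p = 0.34).

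The transcription factor Irf1 showed the same shape with little spread. It was at 21.0, 18 and 19.7 CPM at rest, and at 19.6, 25.2, 23.5, 24.7 and 24.4 CPM with inhibitor and DMXAA. With DMXAA it was at 125, 121, 120.2, 139.6 and 116 CPM. The first 2 groups overlapped, and DMXAA stood alone. The change against rest was 0.26 ± 0.08 (adjusted p = 0.015) and was lost without rest library 2, under limma on log2(TPM + 1) and in the fit of 46 libraries (adjusted p = 0.32), while the difference from DMXAA was 5.30-fold (log2 -2.40 ± 0.07, adjusted p = 1.2e-21).

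Genes of interferon receptor signalling, Irf1 among them, moved in both directions against rest. Of 13 genes, 3 rose and 4 fell with inhibitor and DMXAA, against 17.4% and 15.0% of all genes tested. Lower than with DMXAA were 7 of the 13, against 10.1% of all genes. The rises numbered 5 without rest library 1, where Irf9 (0.28) and Stat2 (0.38) passed, and 1 without rest library 2. In the fit of 46 libraries Irf1, Socs1 (adjusted p = 0.37) and Usp18 (adjusted p = 0.13) all lost their calls. The suppressor Socs1 rose by 1.32 ± 0.28, to 2.12 ± 0.401 CPM against 13.3 ± 1.91 with DMXAA. The ISG15 protease Usp18 rose by 0.55 ± 0.17, a call lost without rest library 2 or 3. Irf7, the factor that amplifies type I interferon, was at 67.1 ± 30.6, 65.0 ± 18 and 123 ± 13.5 CPM at rest, with inhibitor and with DMXAA. The receptor chains Ifnar1 (-0.34 ± 0.06) and Ifnar2 (-0.49) fell, as did Irf8 (-0.90 ± 0.05) and Socs3 (-1.44 ± 0.15).

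Genes of the STING pathway itself moved in both directions, with a median log2 change of -0.02 against rest. Sting1 was at 33.8, 30.3 and 32.2 CPM at rest and at 28.1, 30.6, 34.6, 31.2 and 32.7 CPM with inhibitor and DMXAA, overlapping groups with a log2 change of -0.03 ± 0.08 (adjusted p = 0.82). Irf3 was at 39.2 ± 2.88, 41.5 ± 4.01 and 33.6 ± 1.34 CPM at rest, with inhibitor and with DMXAA, and was 0.30 ± 0.07 log2 higher with inhibitor than with DMXAA, a call lost in the fit of 46 libraries (adjusted p = 0.063). Tbk1 rose by 0.58 ± 0.06, to 92.8 ± 5.47 CPM against 103 ± 6.09 with DMXAA. In all, 4 of 16 members rose and 5 fell, against 17.4% and 15.0% of all genes tested. The exonuclease Trex1, which degrades cytosolic DNA, rose most (0.93 ± 0.23). In the fit of 46 libraries 2 rose and 3 fell, and the call of Trex1 was lost (adjusted p = 0.20); without rest library 3 the falls also numbered 3. The rise of Cgas (0.15 ± 0.05) was lost in 9 of the settings tried, upper-quartile scaling among them.

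Antigen presentation genes had a median log2 change of 0.06 against rest. Of 17, B2m rose (0.29 ± 0.07) and both Tap1 (-0.31 ± 0.09) and Psmb10 (-0.25) fell, while 12 were lower with inhibitor than with DMXAA. Tap1, the peptide transporter, was at 36.3 ± 4.55 CPM at rest, 29.3 ± 4.57 with inhibitor and 50.9 ± 1.29 with DMXAA. Inhibitor library 1 was the lowest of its group for all 17 genes. Without rest library 1, 4 members rose and 1 fell, and the fall of Tap1 was lost (-0.21, adjusted p = 0.10). Upper-quartile scaling gave 5 falls, and the fit of 46 libraries left 1 fall and 7 members lower than with DMXAA and lost the rise of B2m (adjusted p = 0.26).

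Inflammatory cytokine genes also rose with inhibitor and DMXAA. Of 16 tested out of 25 listed, 8 rose with inhibitor and DMXAA and 10 were lower than with DMXAA alone (5 in the fit of 46 libraries). Tnf (chr17:35418357-35420983), the cytokine that activates NF-kB in neighbouring cells, was at 43.3, 34.1 and 32.2 CPM at rest. It was at 368, 342, 357, 293 and 312 CPM with inhibitor and DMXAA, and at 511, 532, 575, 509 and 548 CPM with DMXAA. The 3 groups did not overlap. The rise was 9.15-fold with inhibitor (log2 3.19 ± 0.12, adjusted p = 1.3e-15) and 14.7-fold with DMXAA, and the level was 1.60-fold lower with inhibitor than without.

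The macrophage chemokine Ccl4 was at 30.3, 15.0 and 16.3 CPM at rest, 690.2, 796, 747, 729 and 751 CPM with inhibitor and DMXAA, and 992, 929, 1072, 985 and 1127 CPM with DMXAA. The rise was 36.2-fold, and the level was 1.38-fold lower than with DMXAA (log2 -0.46 ± 0.15, adjusted p = 0.030). That difference from DMXAA was lost in 7 of the settings tried, among them the fit of 46 libraries (adjusted p = 0.27) and the fits without inhibitor library 1 or 4 or DMXAA library 3 or 5, while no library of the 5 with inhibitor reached one with DMXAA. Its neighbour Ccl3, which may share reads with it, rose by 2.73 ± 0.14 and was 0.58 ± 0.11 below DMXAA, a call lost in the fit of 46 libraries. Acod1, which makes itaconate, rose from 3.16 ± 0.0725 to 29.4 ± 2.40 CPM, against 53.7 ± 0.957. Il10 had no count at rest and reached 0.380 ± 0.258 CPM, at least 2.16-fold over the floor, and Il1b was under the floor in every group and was not tested.

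Nfkbia was above both rest and DMXAA. Nfkbia, which encodes the inhibitor that holds NF-kB in the cytoplasm, was at 88.1, 76.8 and 76.1 CPM at rest. It was at 248, 251, 233, 227 and 221 CPM with inhibitor and DMXAA, and at 191, 163, 183, 181 and 187 CPM with DMXAA. Every inhibitor library was above every DMXAA library. The rise was 1.56 ± 0.06 on the log2 scale (adjusted p = 1.9e-18), and the difference from DMXAA was 0.38 ± 0.05 (adjusted p = 2.0e-06).

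Of the 18 NF-kB subunits and feedback inhibitors, 11 rose and 2 fell against rest, and 2 were higher and 11 lower than with DMXAA. The ubiquitin-editing enzyme Tnfaip3 (A20) rose by 2.92 ± 0.11, from 8.15 ± 0.357 to 61.5 ± 5.76 CPM, and was 0.60 ± 0.08 below DMXAA. Nfkbid, a nuclear IkB protein, was the other gene above DMXAA (0.24 ± 0.06), with 24.4 ± 1.21, 39.6 ± 2.74 and 33.4 ± 1.75 CPM at rest, with inhibitor and with DMXAA. The coactivator Bcl3 fell by 1.09 ± 0.16. The falls against rest numbered 4 under upper-quartile scaling and limma on log2(TPM + 1). With 46 libraries in the fit, 5 were lower than with DMXAA, and the call of Nfkbid was lost (adjusted p = 0.35).

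The immediate early genes, which answer signals without new protein synthesis, moved in both directions. Of 25, 11 rose and 4 fell against rest, and 4 were higher and 15 lower than with DMXAA. The falls numbered 2 without inhibitor library 4, without rest library 2 or 3, and in the fit of 46 libraries. Egr1, a zinc-finger factor downstream of ERK, was at 12.9, 10.3 and 9.74 CPM at rest. It was at 238, 259, 248, 214 and 218 CPM with inhibitor and DMXAA, and at 412, 368, 339.6, 349 and 348 CPM with DMXAA. The groups did not overlap. The rise was 21.5-fold (log2 4.42 ± 0.18, adjusted p = 2.3e-14), and the level was 1.54-fold lower than with DMXAA.

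Related factors split. Egr2 rose by 3.18 ± 0.24 and Maff by 3.56 ± 0.19, with differences from DMXAA of -0.76 ± 0.16 and -0.73 ± 0.13 that the fit of 46 libraries did not call (adjusted p = 0.075 and 0.11). Fos was at 18.8 ± 1.22 CPM at rest, 16.1 ± 1.68 with inhibitor and 38.8 ± 4.80 with DMXAA, and did not pass against rest (-0.23 ± 0.15, adjusted p = 0.28), but was 1.27 ± 0.13 below DMXAA. Atf3 was at 18.6 ± 2.50, 24.9 ± 4.25 and 71.2 ± 4.05 CPM in that order, with an adjusted p of 0.064 against rest that passed in 7 other settings. In contrast, Ier3, an early gene that affects cell survival, was at 29.6, 17.2 and 21.6 CPM at rest, 142, 115, 124, 117 and 118 with inhibitor, and 89.5, 84.1, 91.8, 74.0 and 88.3 with DMXAA. Its inhibitor libraries were all above the DMXAA libraries (0.52 ± 0.10 above DMXAA), and Jun (0.58 ± 0.09) and Ier2 (0.33 ± 0.09) were also higher than with DMXAA. The fit of 46 libraries left 2 members higher than with DMXAA and lost the calls of Ier3 (adjusted p = 0.067) and Ier2 (adjusted p = 0.065).

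Among the MAP kinase phosphatases and mRNA decay factors, 8 of 16 tested rose and 4 fell against rest. Zfp36, which destabilizes cytokine mRNA, rose from 28.0 ± 4.91 to 91.0 ± 7.51 CPM, against 127 ± 10.5 with DMXAA. Dusp6, an ERK phosphatase, fell by 1.06 ± 0.10 with inhibitor and by 1.72 ± 0.10 with DMXAA, and was 0.65 ± 0.09 higher with inhibitor than without. Dusp2 rose by 0.89 ± 0.10 and stood 0.86 ± 0.09 below DMXAA. Ppp1r15a, which reverses the phosphorylation of eIF2 alpha, was one of the strongest rises of all, 14.4-fold (log2 3.85 ± 0.16), from 17.1 ± 2.44 to 246 ± 16.4 CPM, against 511 ± 14.8 with DMXAA.

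**Figure D3:**
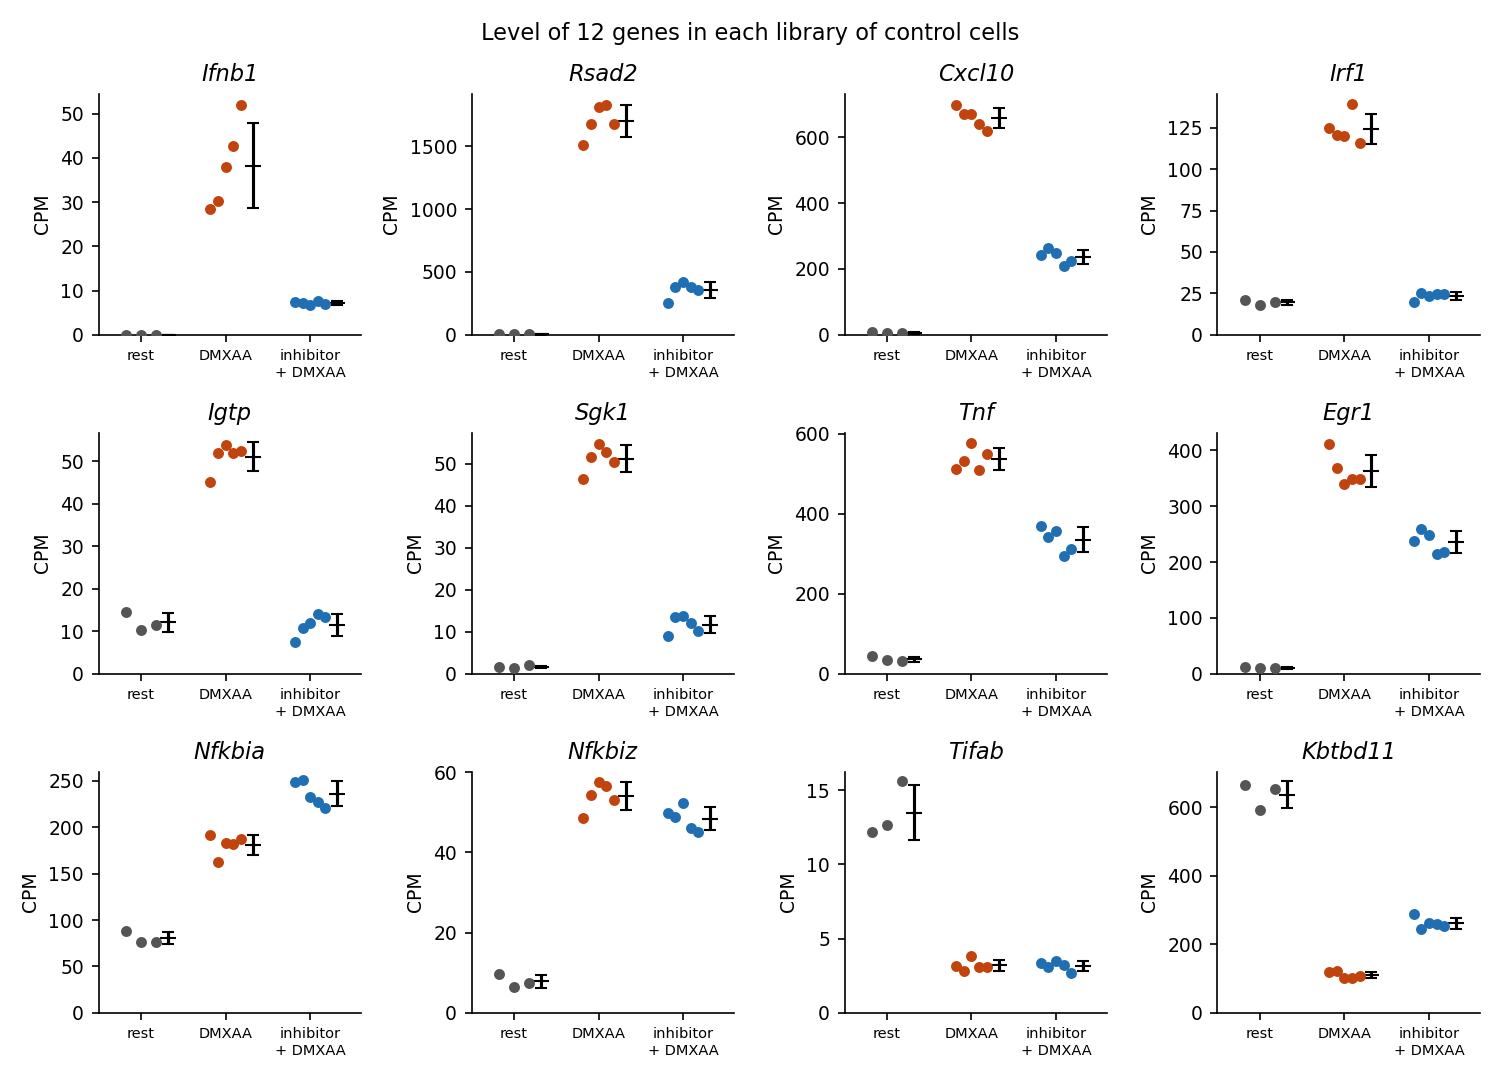
Level in CPM of 12 genes in each library at rest (grey, 3 libraries), with DMXAA (orange, 5) and with inhibitor and DMXAA (blue, 5), with the mean and SD beside the points; each panel starts at 0 and has its own scale. Irf1 and Igtp with inhibitor overlap rest, Tnf and Egr1 lie between rest and DMXAA, Nfkbia lies above DMXAA, and Nfkbiz and Tifab overlap DMXAA.

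A set of genes reached a like level with and without inhibitor. Protein-coding genes entered if called against rest with at least a 2-fold change and at least 5 CPM in the higher group. The 95% interval of the direct difference also had to lie inside -0.5 to 0.5 on the log2 scale. This left 48 genes that rose and 31 that fell. At any level, 529 of the 12407 protein-coding genes tested were at least 2-fold higher than at rest and 196 at least 2-fold lower. A gene with a wide interval could not enter, whatever its difference, so the size of the set is not a share of genes alike. Nfkbiz, a nuclear IkB protein that helps induce late inflammatory genes, was at 9.64, 6.44 and 7.39 CPM at rest, 49.8, 48.8, 52.3, 46 and 45.1 with inhibitor and DMXAA, and 48.5, 54.4, 57.6, 56.5 and 53.1 with DMXAA. The last 2 groups overlapped, and the interval of their difference ran from -0.36 to 0.04.

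Bbc3, which encodes the pro-apoptotic protein PUMA, rose 7.43-fold, from 33.4 ± 3.70 to 248 ± 11.8 CPM, against 288 ± 14.4 with DMXAA. Its difference from DMXAA was small but called (-0.22 ± 0.05, adjusted p = 0.0029), though not in the fit of 46 libraries (adjusted p = 0.37). Cflar, a brake on caspase-8, rose by 1.60 ± 0.08 with inhibitor and by 1.84 ± 0.08 with DMXAA. The difference of Cflar from DMXAA was also called (-0.23 ± 0.06, adjusted p = 0.0070), though not in the fit of 46 libraries (adjusted p = 0.075). Apoe, the lipid carrier, rose from 5.78 ± 1.53 to 24.3 ± 3.62 CPM, against 25.9 ± 3.87, with an interval from -0.32 to 0.14. Zcchc2 was at 39.8 ± 0.347 CPM at rest and 172 ± 13.5 with inhibitor and DMXAA, and Pnrc1, Aoc2 and Mss51 completed the 8 largest rises of this set.

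**Figure D4:**
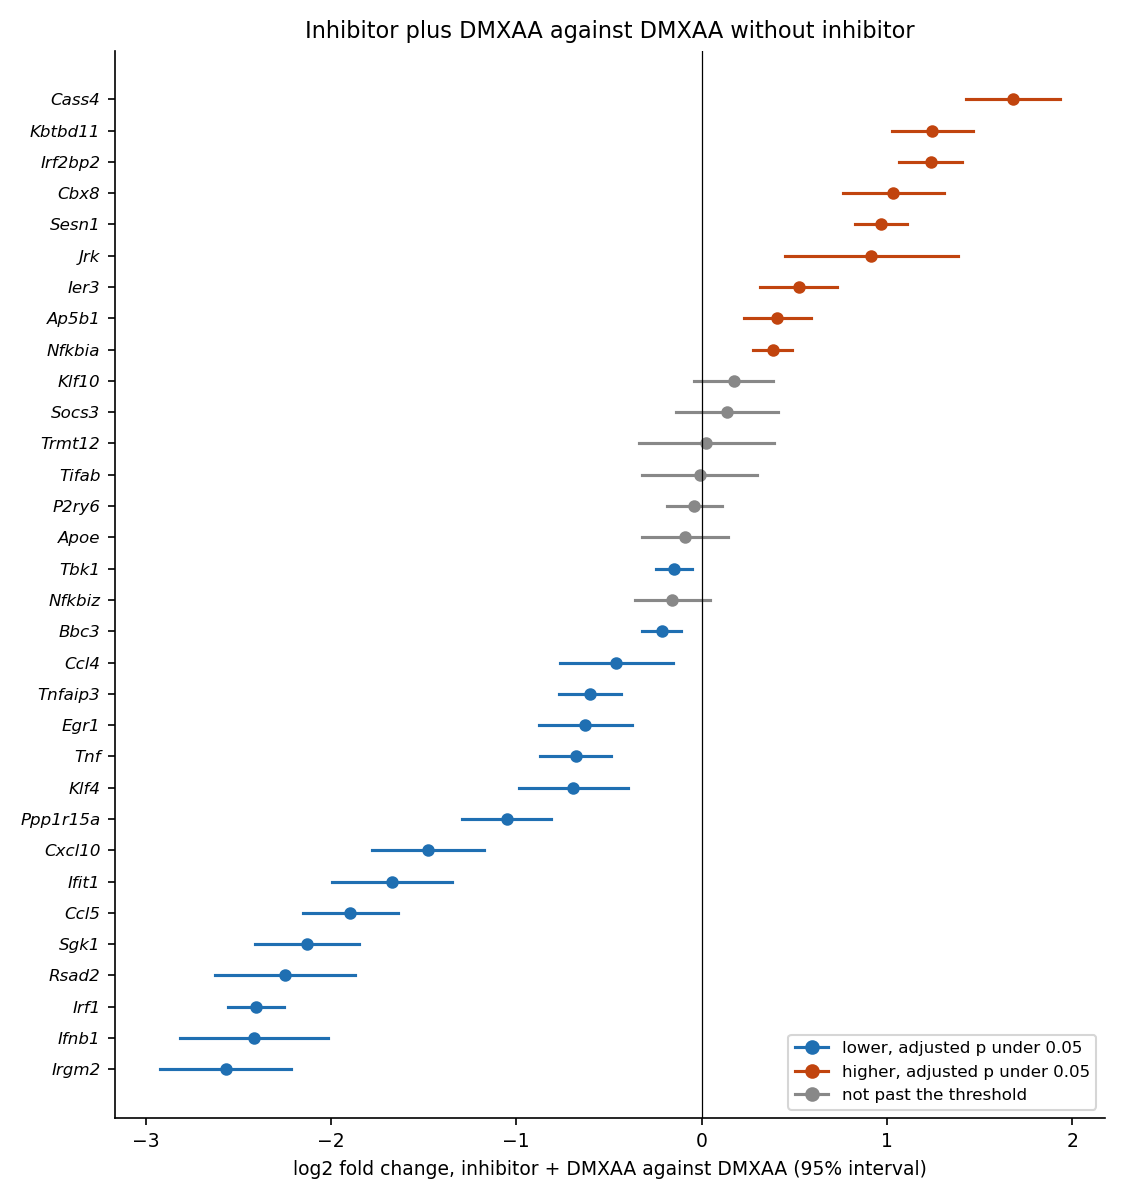
Log2 fold change of inhibitor plus DMXAA against DMXAA for 32 genes (horizontal axis, points with 95% intervals), ordered by value; orange is higher, blue lower and grey did not pass an adjusted p under 0.05. Interferon-linked genes such as Irgm2 (-2.57) and Rsad2 (-2.25) lie lowest, Tnf (-0.68) and Egr1 (-0.63) nearer 0, and Cass4 (1.68) highest.

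Some of the strongest rises lay outside the lists. Hdc, which makes histamine, was under the floor at rest and reached 5.29 ± 0.673 CPM, at least 30.0-fold over it, against 11.5 ± 1.32 with DMXAA. Iqsec3 had no count at rest, and its 2.92, 2.95, 5.26, 8.88 and 6.73 CPM with inhibitor overlapped the 2.41, 3.64, 4.62, 4.45 and 4.95 CPM of DMXAA. Fhdc1 reached 5.51 ± 0.802 CPM with inhibitor and 5.91 ± 0.530 with DMXAA, from 0.195 ± 0.276 at rest. Ccrl2, which binds the chemoattractant chemerin, rose 16.4-fold to 13.6 ± 2.87 CPM and was 4.07-fold below the 55.4 ± 5.78 CPM of DMXAA.

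Among the falls against rest, Jrk was the deepest of the genes named. Jrk (chr15:74574150-74581384), a nuclear protein related to transposases, was at 11.3, 10.4 and 12.1 CPM at rest. It was at 0.946, 1.38, 1.19, 1.40 and 1.31 CPM with inhibitor and DMXAA, and at 0.644, 0.903, 0.691, 0.434 and 0.637 CPM with DMXAA. All 5 inhibitor libraries were above the DMXAA libraries and far below rest. The level was 9.05-fold lower than at rest with inhibitor (log2 -3.17 ± 0.24, adjusted p = 3.4e-12) and 17.0-fold lower with DMXAA, a direct difference of 0.92 ± 0.23 that limma on log2(TPM + 1) did not call (adjusted p = 0.18).

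Several other large falls overlapped those with DMXAA. Tifab, an inhibitor of TRAF6 signalling, was at 12.2, 12.6 and 15.6 CPM at rest, 3.36, 3.07, 3.49, 3.22 and 2.65 with inhibitor, and 3.16, 2.78, 3.79, 3.07 and 3.11 with DMXAA. The treated groups overlapped, with a difference of -0.01 ± 0.15 whose interval ran from -0.32 to 0.30. Trmt12 (-2.22 ± 0.20 against rest), Cbfa2t3 (-2.01 ± 0.19) and Chac1 (-2.79 ± 0.30) likewise overlapped DMXAA. The nucleotide receptor P2ry6 (-1.37 ± 0.08) and the TGF-beta-induced factor Klf10 (-1.46 ± 0.12) were also in the like-level set.

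A few falls were deeper with inhibitor. The endosomal DNA receptor Tlr9 was at 9.96, 10.9 and 10.5 CPM at rest, 2.45, 3.25, 3.61, 3.12 and 2.46 with inhibitor, and 5.68, 6.23, 5.52, 5.73 and 5.25 with DMXAA. The groups did not overlap, and the difference from DMXAA was -0.93 ± 0.14 (adjusted p = 1.2e-05). Klf4, a factor of monocyte differentiation, fell by 2.06 ± 0.16 with inhibitor against 1.37 ± 0.16 with DMXAA, and the adaptor Sla fell by 1.80 ± 0.16 against 1.00 ± 0.16. Ap5b1 (-1.77 ± 0.10) and Rubcnl (-1.73 ± 0.14) went the other way and were 0.41 ± 0.09 and 0.48 ± 0.13 above DMXAA, the latter with an adjusted p of 0.061 in the fit of 46 libraries.

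**Figure D5:**
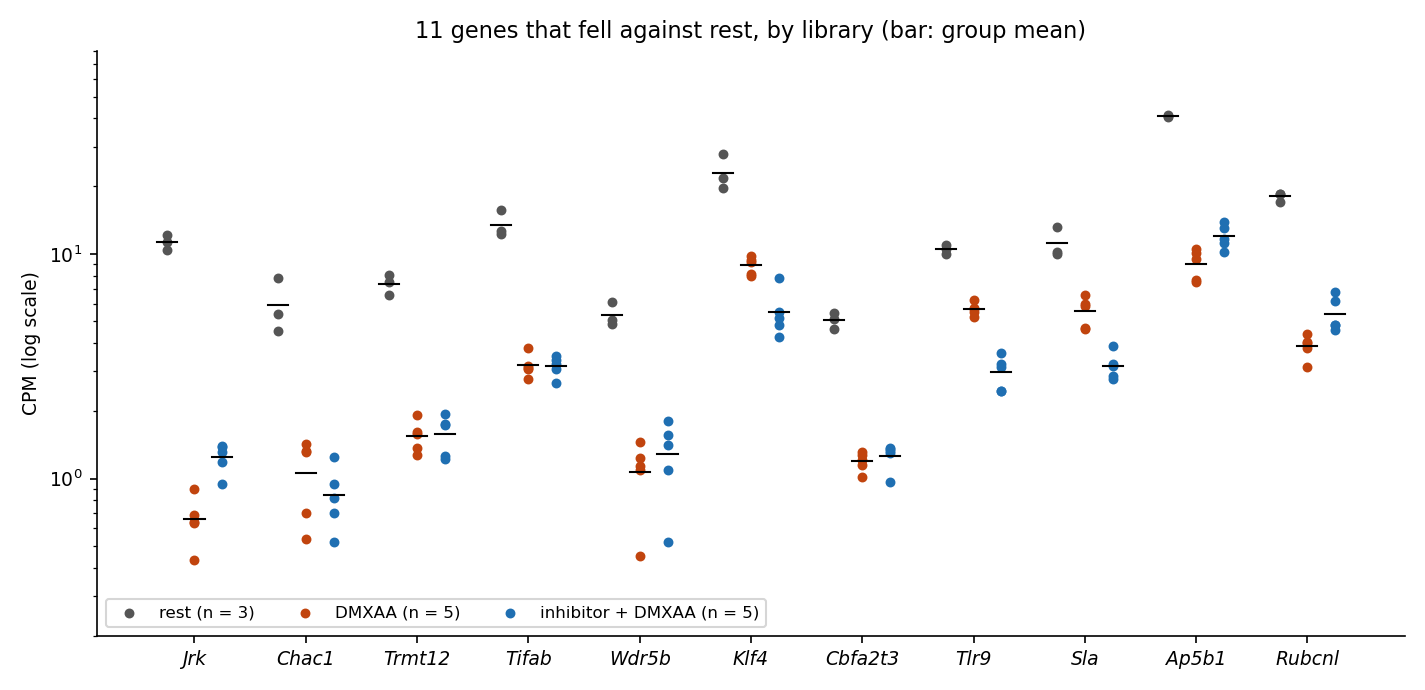
Level in CPM (log axis) in each library of 11 genes that fell against rest with inhibitor and DMXAA, at rest (grey), with DMXAA (orange) and with inhibitor and DMXAA (blue); bars are group means. The blue points overlap the orange ones for Chac1, Trmt12, Tifab, Wdr5b and Cbfa2t3, and lie below them for Klf4, Tlr9 and Sla.

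The protein-coding genes that were at least 2-fold lower had few exons. These 196 genes had a median of 4 exons, and 62 (31.6%) had at most 2, against a median of 9 exons and 7.17% of the 12407 protein-coding genes tested. The 529 that were at least 2-fold higher had a median of 7 exons, and 14.7% had at most 2. Symbols of zinc-finger genes made up 9.69% of the lower genes, 1.51% of the higher ones and 3.18% of all. The median level at rest was 4.30 CPM for the lower genes, 0.222 CPM for the higher ones and 27 CPM over all. Exon counts came from GENCODE vM21 models matched by gene identifier, and the part of level or gene length in these shares was not tested.

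Other genes fell with DMXAA and lay higher with inhibitor, between DMXAA and rest or near rest. Kbtbd11 (chr8:15061025-15083333), a Kelch-domain protein, was at 665, 592 and 654 CPM at rest, 288, 244, 263, 259.9 and 252 with inhibitor, and 120.2, 122, 101, 102 and 107 with DMXAA. The groups did not overlap: the level was 2.44-fold lower than at rest with inhibitor and 5.77-fold lower with DMXAA. Irf2bp2, a corepressor partner of IRF2, fell by 1.13 ± 0.09 with inhibitor and by 2.37 ± 0.09 with DMXAA, and the Polycomb subunit Cbx8 fell by 0.89 ± 0.15 and 1.92 ± 0.15.

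Cass4, a scaffold of focal adhesions, was at 20.3, 20.6 and 19.8 CPM at rest and 27.4, 24.8, 28.4, 22.1 and 24.2 with inhibitor, with 8.48, 9.20, 8.17, 6.26 and 7.51 with DMXAA. It did not pass against rest (0.33 ± 0.14, adjusted p = 0.075), although every inhibitor library was above rest, and it was 3.20-fold higher than with DMXAA (adjusted p = 4.8e-11). Zfp12 and Gm14399 were also near rest with inhibitor, with differences from DMXAA of 0.98 ± 0.09 and 1.01 ± 0.17. Gm20390 was named by the same rule, but its call against DMXAA (1.66 ± 0.45) was lost in the fit of 46 libraries (adjusted p = 0.50).

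The mRNA of Sgk1, one of the SGK kinases, rose. Sgk1 (chr10:21758083-21875802) was at 1.52, 1.36 and 1.99 CPM at rest. It was at 9, 13.5, 13.8, 12 and 10.1 CPM with inhibitor and DMXAA, and at 46.4, 51.8, 54.8, 52.8 and 50.5 CPM with DMXAA. The groups did not overlap. The rise was 7.2-fold with inhibitor (log2 2.85 ± 0.19, adjusted p = 5.5e-12) and 31.6-fold with DMXAA, and the level with inhibitor was 4.39-fold lower than without (adjusted p = 1.3e-11). Sgk3, the relative bound to endosomes, was at 96.0 ± 0.705, 94.9 ± 2.96 and 102 ± 4.66 CPM at rest, with inhibitor and with DMXAA (-0.02 ± 0.05 against rest, adjusted p = 0.84). Its difference from DMXAA (-0.10 ± 0.04, adjusted p = 0.054) passed in 7 other settings.

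Of 19 SGK and AKT kinases and regulators tested, 6 rose and 2 fell against rest, with a median log2 change of 0.08. Among the rises were the mTORC2 subunit Rictor (0.58 ± 0.08) and the PI3K catalytic subunit Pik3ca (0.52 ± 0.06). The rises numbered 3 under limma on log2(TPM + 1), and 1 gene fell without inhibitor library 1 and without rest library 2 or 3. Of 11 genes for SGK substrates, 3 rose and 3 fell, with 1 rise under limma on log2(TPM + 1) and in the fit of 46 libraries and 5 falls under upper-quartile scaling. Both lists are small, and over all genes tested 17.4% rose and 15.0% fell against rest. Ndrg1 mRNA fell by 0.60 ± 0.13, from 25.6 ± 3.17 to 16.8 ± 3.47 CPM, with 19.1 ± 2.06 with DMXAA, and inhibitor library 1 was lowest at 10.8 CPM. Foxo3 rose by 0.53 ± 0.06 both with and without inhibitor, whereas Foxo1 was at 9.01 ± 1.24, 8.23 ± 0.522 and 6.32 ± 0.561 CPM at rest, with inhibitor and with DMXAA. These are mRNA levels, and phosphorylation of the substrates was not measured.

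FOXO target genes, which SGK and AKT restrain by keeping FOXO out of the nucleus, moved in both directions. Of 23 tested, 8 rose and 6 fell against rest, and 6 were higher and 4 lower than with DMXAA (2 lower in the fit of 46 libraries). Over all genes tested these shares were 17.4% and 15.0% against rest, and 10.6% and 10.1% against DMXAA. Sesn1, a stress-induced regulator of mTORC1, was at 58.7, 66.7 and 65.6 CPM at rest, 72.1, 61.6, 58.8, 53.3 and 59.1 with inhibitor, and 32.3, 33.6, 28.8, 28.9 and 32 with DMXAA. The first 2 groups overlapped and the difference from DMXAA was 0.97 ± 0.07 (adjusted p = 4.4e-12). Cdkn1b, the cell-cycle inhibitor p27, rose from 60.0 ± 7.75 to 124 ± 8.68 CPM and was above the 95 ± 3.38 CPM of DMXAA. Txnip, which limits glucose uptake, fell by 1.44 ± 0.06 with inhibitor and by 2.10 ± 0.06 with DMXAA. Tsc22d3 was likewise nearer rest with inhibitor (0.81 ± 0.12 above DMXAA), while Klf2 (-0.52 ± 0.13) was lower than with DMXAA, a call lost in the fit of 46 libraries (adjusted p = 0.061).

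Among p53 targets, 10 of 24 tested rose and 3 fell against rest, beside 17.4% and 15.0% of all genes tested. That list shares Bbc3 and Sesn1 with the FOXO list. Plk3 rose from 7.12 ± 0.761 to 19.5 ± 0.894 CPM, with 17.9 ± 1.30 with DMXAA, and the BH3-only gene Pmaip1 (NOXA) rose by 1.14 ± 0.08 and was 0.40 ± 0.07 below DMXAA.

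Cell cycle genes fell slightly. Of 36, 19 fell and 3 rose with inhibitor and DMXAA, against 8 and 8 with DMXAA, and 16 were lower with inhibitor than without. The median log2 change was -0.17 with inhibitor and 0.02 with DMXAA, beside 0.00 over all genes. Cdc6, which loads the replicative helicase, was at 41.6, 43.7 and 42.2 CPM at rest, 29.4, 31.8, 30.9, 28.4 and 29.7 with inhibitor, and 45.7, 44.9, 41.8, 41.1 and 40.3 with DMXAA. Its inhibitor libraries lay below all others (-0.50 ± 0.05 against rest, -0.51 ± 0.05 against DMXAA). Rrm2, a subunit of ribonucleotide reductase, fell by 0.54 ± 0.06, and cyclin D1 (Ccnd1) fell by 0.89 ± 0.06 with inhibitor and 0.67 ± 0.06 with DMXAA. Across the settings 14 to 22 members fell with inhibitor. The rises numbered 5 without inhibitor library 1, and the falls with DMXAA numbered 5 without DMXAA library 4 and without rest library 2 or 3.

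Glycolysis genes were lower with inhibitor than with DMXAA for 17 of 26 members, while 6 rose and 11 fell against rest. Pfkp, a phosphofructokinase, was at 186 ± 19.6, 251 ± 19.7 and 364 ± 22.1 CPM at rest, with inhibitor and with DMXAA. Pdk1, which diverts pyruvate from the mitochondrion, fell by 0.55 ± 0.06, and by 0.27 ± 0.06 with DMXAA. The number that fell against rest was 5 without rest library 3, 7 without inhibitor library 1 and 14 under upper-quartile scaling. Sterol synthesis genes fell in 13 of 26 cases and rose in 4, with 13 and 3 for DMXAA, and 18 fell under upper-quartile scaling. The sterol genes that rose with inhibitor numbered 2 without rest library 1 or 3. Insig1, the sterol-regulated anchor of SREBP, rose by 1.43 ± 0.12, to 325 ± 16.5 CPM against 339 ± 8.68 with DMXAA, and Hmgcs1 fell by 0.42 ± 0.07.

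In the unfolded protein response, 3 of 18 genes rose and 3 fell against rest, near the 17.4% and 15.0% of all genes tested. With inhibitor, 11 were lower than with DMXAA (5 in the fit of 46 libraries), against 10.1% of all genes. Those shares over all genes also stand beside the lists that follow. Rest library 1 was the highest at rest for 17 of the 18 genes, against 38.5% of all genes tested. Inhibitor library 1 was the lowest of its group for 12 of them, against 31.7%. The chaperone Hspa5 rose by 0.27 ± 0.06 with inhibitor and 0.53 ± 0.06 with DMXAA, and Dnajb9 rose from 12.7 ± 3.17 to 26.4 ± 1.66 CPM, against 30.1 ± 1.41. Of 22 genes of the ATF4 amino acid response, 5 rose and 6 fell, with 3 rises without rest library 3 and 11 falls under upper-quartile scaling. Slc3a2, a subunit of amino acid exchangers, rose by 0.68 ± 0.08, whereas the glutathione-degrading enzyme Chac1 was among the largest falls. Among 30 lysosomal genes 10 rose and 4 fell, with Flcn, a regulator of TFEB, at 61.1 ± 5.55, 166 ± 11.1 and 162 ± 8.95 CPM at rest, with inhibitor and with DMXAA. The lysosomal falls numbered 1 without inhibitor library 1 and 2 without rest library 1 or 3. Tfeb fell by 0.83 ± 0.09. Of 19 NRF2 targets, 2 rose and 7 fell, with Osgin1 lowest (-1.46 ± 0.26).

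Macrophage markers checked the label of the cells. Their summed level was 8963 to 10078 CPM at rest, 8483 to 9387 with DMXAA and 8029 to 8733 with inhibitor and DMXAA. Of 17 tested, 10 fell with inhibitor and DMXAA. Cx3cr1 fell by 1.20 ± 0.08, to 261 ± 15.8 CPM against 293 ± 16.2 with DMXAA. Fcgr1, a high-affinity Fc receptor, was at 66.9 ± 5.40, 42.5 ± 3.75 and 66.8 ± 2.97 CPM at rest, with inhibitor and with DMXAA, below both references in every inhibitor library. Csf1r fell by 0.20 ± 0.07, a call lost without inhibitor library 1, and 8 of the 17 were lower than with DMXAA. That number was 5 without inhibitor library 1 or 4 and without DMXAA library 1, 2 or 3.

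Of 24 markers of other cell types, 14 had no count in any library, and their summed level was 0.384 to 0.952 CPM at rest, 1.37 to 1.92 with DMXAA and 0.693 to 1.45 with inhibitor and DMXAA. The B-cell receptor gene Cd79a rose, and was at 0.0331 ± 0.0573, 1.20 ± 0.318 and 0.818 ± 0.162 CPM at rest, with DMXAA and with inhibitor. Pecam1 and Cdh5 were the other 2 tested and did not pass. Whether other cells contributed to the results was not tested.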

How the data were processed

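Messenger RNA of RAW264.7 cells was sequenced as poly-A libraries, per the labels' protocols. Reads were processed with STAR 2.7.9a and StringTie 2.2.0 on GRCm39, per the submitters' processing notes, and the tables deposited by the authors name GENCODE M27. The deposited expected counts are estimated counts for each of 55416 genes (21885 protein coding), and the deposited TPM values are the authors' scaling by length and depth; how strand and shared reads were treated is not given in the sources used here. Without strand, overlapping and antisense genes cannot be told apart. Of values from 1 to 16, 17.9% were 4, so 1 read pair was taken as 4 counts, and the floor was 3 read pairs or 12 counts in a library (0.164 to 0.176 CPM).

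Counts were rounded and filtered with filterByExpr, which left 16947 genes. They were scaled by TMM and fitted in edgeR 4.0.16 (R 4.3.3) with a robust quasi-likelihood model, 1 coefficient for each of the 6 groups of batch b1 (26 libraries). Two-sided p-values were adjusted by Benjamini and Hochberg over all tested genes, with a threshold of 0.05. CPM are on TMM-scaled library sizes, fold changes of levels are ratios of group means, and log2 values carry the SE of the fit and a 95% interval. Alternatives used DESeq2 1.42.0 and limma 3.58.1 on log2(TPM + 1), and figures were drawn with matplotlib 3.10.9 in Python 3.11.15. The scripts were tested on simulated data. Among 23 replicate pairs of libraries 0 were identical.

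The genes named were the 12 largest rises and 12 largest falls against rest and the 8 largest differences each way from DMXAA, among protein-coding genes called, of at least 5 CPM, whose libraries did not overlap. To these came the 8 and 8 genes of like level, the leading members of 23 lists (495 genes) and a panel of 19 pathway genes. The values of 2 genes that this rule named are not reported here. List members outside the rule were chosen after their values were seen. The members and lists were chosen with earlier results of these data known.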

Additional observations from a re-analysis of the deposited data

Results flagged for a closer look

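In 314 groups of 5 libraries for the named genes, 19 held a library whose gap to its nearest neighbour exceeded 0.71 of the group's range, where chance gives about 1 in 20. Of these, 9 were inhibitor library 1, which stood apart on other measures as well. It was low for B2m at 714 CPM (the others 824 to 864), Cbfa2t3 at 0.963 (1.30 to 1.36), Ifih1 at 123 (167 to 184), Irgm1 at 46.6 (61.7 to 66.5), Ndrg1 at 10.8 (17.2 to 19.2), Pfkp at 217 (256 to 268), Sqstm1 at 349 (396 to 409) and Tap1 at 21.3 (30.1 to 32.5). It was high for Cxcl11 at 1.60 CPM (0.802 to 0.965).

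Inhibitor library 2 was high for Ifit1 at 239.8 CPM (197 to 206). Inhibitor library 3 was high for Dhcr7 at 63.7 (55.2 to 57.1) and Tbk1 at 102 (89.3 to 92.3). Inhibitor library 4 was high for Ifit3b at 4.61 (2.69 to 2.91) and library 5 was low for Ccng2 at 31.7 (38.4 to 41.0).

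With DMXAA alone, library 1 was low for Igtp at 45.2 CPM (52.0 to 53.7) and Trex1 at 46.7 (64.7 to 69.7). Library 2 was high for Fosl1 at 9.16 (3.92 to 5.32). Library 3 was low for Ccng2 at 33.7 (35.3 to 35.7) and high for Gla at 78.2 (68.6 to 70.6).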

How the results depend on the processing

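Counts of called genes against rest with inhibitor, against rest with DMXAA, and with inhibitor against DMXAA were 5503, 5989 and 3520. They were over 1.5 times smaller in the fit of 46 libraries of both batches, at 3231, 3870 and 1558. They were 5816, 6249 and 3934 with DESeq2, 5780, 6358 and 3684 with upper-quartile scaling, 5523, 5990 and 2922 with limma on log2(TPM + 1), 5063, 5572 and 3115 with no filter, 5410, 5740 and 3801 for genes of at least 1 CPM in 3 libraries, and 5174, 5677 and 3138 in the 3 groups alone (13 libraries). Leaving out each library in turn gave 4499 to 5469, 5048 to 5973 and 2955 to 3663.

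Same-numbered libraries gave no sign of a shared deviation: their deviations correlated from -0.25 to 0.08 over 11 pairs, with 0 above 0.1. Libraries with different numbers correlated from -0.28 to 0.27. Such values cannot show whether equal numbers marked paired cultures. With the replicate block the counts were 5223, 5800 and 3524.

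For 156 genes, 7797 values were compared over 21 settings: 7626 kept their side of the threshold, 128 lost a call, 43 gained one and 0 changed direction past the threshold. Of 2300 counts of list members, 2117 stayed within 1.5 times. The fit of 46 libraries left 5 inflammatory, 5 NF-kB and 10 immediate early genes lower than with DMXAA. The cause of these shifts was not tested. Genes under the floor, such as Il1b and Ccl7, are limited by depth.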
